A study of Mus musculus with 5375 samples.

Results

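General capillary endothelial cells (gCap) of the mouse lung were followed over the first days after tumour cells had lodged there. They were chosen by a marker difference, D, in the capillary cells that the authors had filtered and normalised. The level of each gene was first expressed as a z-score over all 2293 capillary cells. D was then the mean z-score of Car4, Ednrb, Fibin, Tbx2, Kdr and Emp2 with the mean z-score of Gpihbp1, Plvap, Aplnr, Cd93, Ptprb and Tek subtracted, and cells with D below 0.25 were taken as gCap. This gave 1604 gCap, which is 70.0% of the capillary cells and 64.7% of the 2479 endothelial cells that the authors had kept, in a series of 5375 sorted cells. A further 598 capillary cells had D above 0.75 and are called alveolar capillary cells, or aerocytes (aCap), and 91 lay between.

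The animals were young adult female BALB/c mice with no genetic change (labelled WT). Day 0 animals received no tumour cells. The others received 4T1-GFP cells as a pair of tail vein injections and were sampled 1.5 or 3.5 days later. This BALB/c breast cancer line carries green fluorescent protein, and its cells had been stained with CellTrace dye. The paper also describes an intravenous injection of fluorescent anti-H-2Kd antibody at day 1.5, shortly before sampling, to stain cells exposed to the circulation. Lung cells were sorted as CD31+ and negative for CD45, PDPN, LYVE and TER119, and every well of a plate held 1 cell, whose library followed a modified form of SMART-Seq2 without molecular identifiers. The replicate was the animal, with 4 uninjected animals and 3 for each of the later days. The injected animals carried an experimental bolus of tumour cells rather than a primary tumour that sheds them. No group of animals injected with vehicle was analysed here, so injection and tumour cells cannot be told apart. On day 1.5 the antibody cannot be told apart from them either.

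The alveolar capillary bed is built of these 2 kinds of endothelial cell. gCap line the vessel lumen, carry GPIHBP1, the protein that moves lipoprotein lipase onto the vessel surface, and PLVAP, the protein of the diaphragms that span caveolae and fenestrae, and are known as the cells from which the capillary bed is renewed. aCap, which line the lumen as well, are large, thin cells specialised for gas exchange, and carbonic anhydrase 4 (Car4) and the endothelin receptor Ednrb mark them. The receptor Tie2, encoded by Tek, signals for a quiescent endothelium, and the phosphatase VE-PTP, encoded by Ptprb, restrains that signal.

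All levels below are on the deposited scale, log10 of the housekeeping-normalised estimated count plus 1, averaged over the gCap of an animal. A mean over cells rises both when more cells hold reads of a gene and when each cell holds more, and these cannot be told apart in the mean. The scale is not corrected for transcript length, so levels are compared between cells and days but not between genes. Each animal gave 123 to 204 gCap with 45.1 to 83.7 M reads in all. The mean profiles of animals of the same day correlated at r = 0.951 to 0.973 over 10840 genes, given as a description. Cells of the later days were richer: the median number of genes detected per gCap was 1834 to 2558 on day 0, 2132 to 2891.5 on day 1.5 and 2312 to 2955 on day 3.5, and the median level over all tested genes lay between 0.239 and 0.278 in day 0 animals, 0.301 and 0.350 on day 1.5 and 0.282 and 0.358 on day 3.5, without overlap with day 0. Fitted differences were therefore taken after each animal had been centred on that median, whereas the levels printed for single animals are as deposited. Day 0 replicates 1 and 2 were sorted together with the day 1.5 animals and day 0 replicates 3 and 4 with the day 3.5 animals. On later days each animal had a sequencing lane of its own, so lane and animal cannot be told apart. No cell name occurred in 2 libraries.

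D separated the capillary cells into a large and a small peak. gCap ranged from -2.47 to 0.24 with a median of -0.75, and aCap from 0.76 to 3.61 with a median of 1.97. The tallest bin of width 0.25 began at -0.75 and held 321 cells, whereas the emptiest bin between the peaks began at 0.5 and held 33. The cells nearest to the limit had D of 0.244, 0.241 and 0.235 inside and 0.253, 0.253 and 0.254 outside, and 28 gCap lay within 0.1 of it. With the longer marker lists of the study in place of the 12 genes, 1645 cells fell below 0.25. Of these 1579 were shared, which is 98.4% of the gCap and 96.0% of that set. Those lists also hold the rule genes Ednrb, Tbx2, Fibin, Plvap, Ptprb, Cd93, Tek and Aplnr, so much of the overlap was built in.

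**Figure D1:**
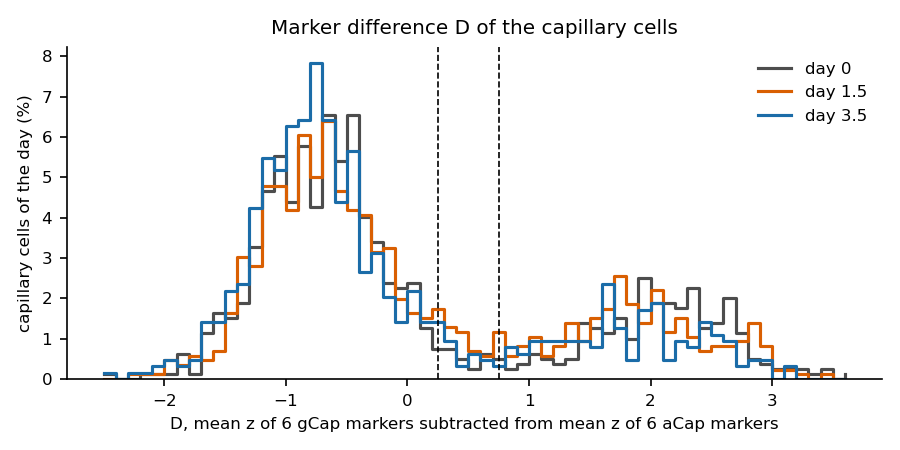
Distribution of the marker difference D over the capillary cells of each day, as percent of that day's cells in bins of 0.1. The dashed lines at 0.25 and 0.75 bound the gCap on the left and the aCap on the right, and on all 3 days the cells between the lines were few.

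The identity of gCap is given as a description, since the cells were chosen on their own measured values. Gpihbp1 (chr15:75596628-75599481, plus strand, GRCm38) had a mean level of 3.99 ± 0.13 in gCap and 2.02 ± 0.38 in aCap (SD over 10 animals), and reads of it were found in 98.5% and 86.5% of the cells. Plvap (chr8:71497765-71511752, minus strand) stood at 3.13 ± 0.15 against 0.69 ± 0.18, and Ptprb (chr10:116275523-116389535, plus strand) at 3.38 ± 0.14 against 0.96 ± 0.28. The remaining rule genes of gCap were Cd93, a surface glycoprotein of the endothelium (2.79 against 0.81), Tek (2.13 against 0.38) and the apelin receptor gene Aplnr (0.90 against 0.12). On the aCap side of the rule, Emp2 had a level of 1.07 in gCap against 4.00 in aCap, Ednrb 0.21 against 2.72 and Car4 1.85 against 3.91. Car4 was thus present in gCap as well, with reads in 73.6% of them, and Kdr, the VEGF receptor 2 gene, in 51.1%.

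Genes outside the rule followed the same division. The paper defined aCap and gCap markers on its own single-cell data, so for the markers it lists this is not independent evidence. All 8 further gCap markers that the study lists were higher in gCap in 10 of 10 animals, among them Kit, the stem cell factor receptor (1.82 ± 0.20 against 0.20 ± 0.10), and Gpr182, an atypical chemokine receptor (2.43 ± 0.33 against 0.76 ± 0.27). All 9 further aCap markers were lower in 10 of 10 animals, with Apln, the ligand of Aplnr, at 0.03 ± 0.02 in gCap and 0.78 ± 0.23 in aCap. The ligand of Kit was divided in the same way as apelin: Kitl stood at 0.82 ± 0.14 in gCap and 2.30 ± 0.29 in aCap. For both pairs the receptor gene was thus high in gCap and the ligand gene in aCap, and of these 4 genes Aplnr is part of the rule and the others are not.

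The genes that set gCap furthest apart, outside the rule, were led by Hmcn1, which encodes the matrix protein hemicentin (2.35 against 0.59), and Tmsb10, an actin-binding thymosin (2.39 against 0.63). They also included the chemokine Cxcl12 (1.94 against 0.48), the arterial connexin gene Gja4 (1.94 against 0.41) and the interferon-induced restriction factor Ifitm3 (4.34 against 2.79). Antigen presentation genes were part of this profile, with H2-Ab1, a class II chain, at 1.75 against 0.33 and Cd74, the class II invariant chain, at 1.40 against 0.22. Lpl, the lipase that GPIHBP1 binds, was also higher in gCap (1.15 against 0.41), as were the arterial factor Sox17 (1.30 against 0.35) and the Notch ligand Dll1 (0.49 against 0.05). The genes lowest in gCap relative to aCap were led by Igfbp7 (2.31 against 4.50), and the homeodomain gene Hopx (1.32 against 3.17) was another. Of 10840 genes, 478 were higher and 750 lower in gCap in all 10 animals, 91 and 234 of them by over 0.5. Of 10 general endothelial genes, 5 were lower in gCap in all 10 animals, by less than the leading genes above, namely Emcn (0.97 against 1.52), Cldn5 (3.59 against 4.06), Esam (2.46 against 2.86), Cdh5 (2.56 against 2.90) and Ramp2 (4.21 against 4.39). The other 5 went in different directions in different animals, among them Pecam1 (3.36 in gCap and 3.47 in aCap) and Egfl7 (3.67 and 3.75), as did the fatty acid transporter gene Cd36 (2.96 and 3.03).

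**Figure D2:**
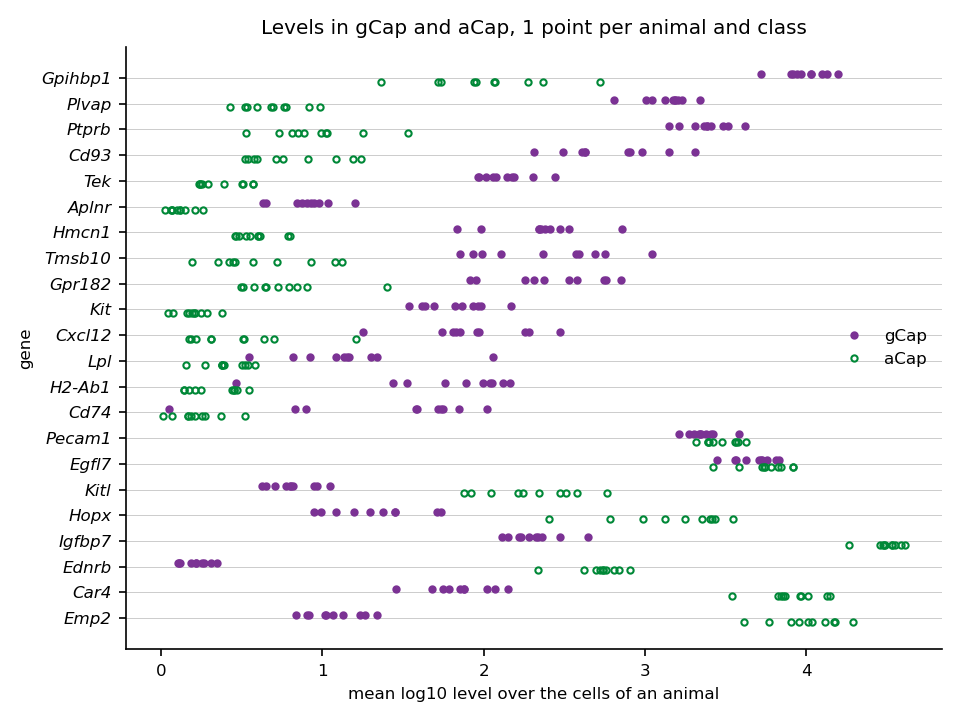
Mean log10 level of 22 genes in gCap (filled) and aCap (open), 1 point per animal and class, with rule genes of gCap at the top and of aCap at the bottom. Receptor and ligand genes lie on opposite sides (Kit at 1.82 in gCap, Kitl at 2.30 in aCap), Pecam1 and Egfl7 overlap, and 1 gCap point of Cd74 and of H2-Ab1 lies near the aCap points.

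Markers of leukocytes, epithelium and mural cells were scarce in gCap, and the authors had removed cells by several of these leukocyte and mural genes, Itgax and Adgre1 among them. CPM here are summed reads scaled to a common library total. The 13 leukocyte genes summed to 0.931 to 8.20 CPM on day 0, 4.45 to 21.7 on day 1.5 and 8.39 to 33.4 on day 3.5. Every day 3.5 animal thus lay above every day 0 animal, and the part of this in the results was not tested. Itgax, Adgre1 and S100a8 were at 0 in every animal. The 10 epithelial genes summed to between 3.32 and 57.8 CPM in an animal and the 9 mural and stromal genes to between 1.72 and 20.9. At least 3 genes of the leukocyte, epithelial and mural lists were found in 3, 4 and 5 of the 1604 gCap. The 6 platelet genes summed to 0.0518 to 4.57 CPM on day 0, to 0.107, 232 and 213 CPM in day 1.5 replicates 1, 2 and 3 and to 40.5, 6.36 and 101 CPM on day 3.5, and at least 3 of them were found in 8 gCap. They lay above all day 0 animals in every injected animal except day 1.5 replicate 1, and their part in the results was not tested. Red cell genes summed to 306 to 682 CPM on day 0, 62.0 to 139 on day 1.5 and 201 to 340 on day 3.5. Large-vessel markers of the study were more widespread, with 3 or more of 12 found in 527 gCap (32.9%), and their summed level was 2.63 to 3.48 on day 0, 4.15 to 5.37 on day 1.5 and 4.16 to 5.09 on day 3.5. The part of these cells in the results on large-vessel genes was not tested.

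The share of gCap among capillary cells did not differ detectably between days. It was 68.4%, 69.3%, 69.5% and 71.5% in the day 0 animals, 70.9%, 61.2% and 67.8% on day 1.5 and 69.7%, 77.8% and 77.7% on day 3.5. The means were 69.7 ± 1.30% (SD, n = 4), 66.6 ± 4.96% (n = 3) and 75.1 ± 4.62% (n = 3), and the spread was widest after injection. Exact two-sided permutation tests over animals gave p = 0.343 for day 1.5 against day 0, 0.114 for day 3.5 against day 0 and 0.2 for day 3.5 against day 1.5, all at 0.3 or above after Benjamini-Hochberg adjustment over the 3. The smallest p these tests allow is 0.0286 for 4 against 3 animals and 0.1 for 3 against 3. Shares of sorted and filtered cells also carry whatever the sort and filter favour.

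Between day 0 and day 1.5 the gCap changed in basement membrane genes, in genes of the IL-6 and interferon responses, in ribosomal protein genes and in clock genes. Limma-trend on the centred mean levels called 216 of 10840 genes at an adjusted p under 0.05 (1.99%), 192 higher (1.77%) and 24 lower (0.221%). For day 3.5 against day 0 it called 157 (1.45%), 133 higher (1.23%) and 24 lower (0.221%), and between the later days only Zbtb16 (0.00923%). Both contrasts with day 0 share the day 0 animals. The edgeR quasi-likelihood test on reads summed per animal was far sparser, with 3 of 16350 genes for day 1.5 against day 0 (0.0183%), and 1 for each of day 3.5 against day 1.5 and day 3.5 against day 0 (0.00612%). At an unadjusted p under 0.05 limma had 14.4%, 5.85% and 17.0% of its genes for day 1.5 against day 0, day 3.5 against day 1.5 and day 3.5 against day 0, and edgeR 7.88%, 4.34% and 8.24%. DESeq2 on the same sums called 339 (2.07%), 115 (0.703%) and 439 (2.69%).

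The number of calls depended on scaling, covariates and single animals, and their direction rarely did. Without centring the calls were 471 higher and 5 lower on day 1.5 and 466 and 1 on day 3.5, and on reads per 10000 of the cell they were 13 and 2, and 24 and 0. The sign of all 216 and all 157 differences was the same on reads per 10000 and when only day 0 animals of the same sort day were used. Those fits reuse cells and animals on which the genes were called, so a change of sign was unlikely from the outset. On summed reads 212 of the 216 and 155 of the 157 had the same sign, and 98 and 77 of them an unadjusted p under 0.05. Between 66 and 274 genes were called for day 1.5 against day 0 when 1 animal was left out, and 42 of the 216 were called every time. For day 3.5 against day 0 it was 14 to 255 genes, and 11 of the 157 were called every time. With the mean number of detected genes per gCap as a covariate, 118 of the 216 calls of day 1.5 and 4 of the 157 of day 3.5 stayed. Those 4 were Sbno2, Scgb3a1 and Snrpd2 (adjusted p = 0.0232 each) and Ifitm3 (0.0394), whereas Lrg1, Col4a2, Col4a1 and Sparc stood at 0.0744, 0.0547, 0.0586 and 0.0936 on that day. On day 1.5 Lrg1 lost its call under that covariate (0.0708), and Col4a2, Col4a1, Sparc and Sbno2 did not.

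Basement membrane genes included the largest single-gene difference of day 1.5 against day 0, that of Col4a2. Endothelial cells rest on a sheet of type IV collagen and laminin, and 4 of 8 tested genes of this list rose by day 1.5, none fell, and the list median was 0.26 (all genes, -0.003). Col4a1 (chr8:11198423-11312826, minus strand) and Col4a2 (chr8:11312805-11449287, plus strand) encode the 2 chains of the common type IV collagen and lie head to head, with RefSeq starts 21 bases apart on opposite strands. SMART-Seq2 libraries do not mark strand, so reads at the overlapping ends could count for either gene. Col4a2 had levels of 1.06, 1.66, 1.87 and 1.79 in the day 0 animals, 2.71, 2.93 and 3.04 on day 1.5 and 2.58, 2.81 and 2.99 on day 3.5. All 6 injected animals lay above all 4 day 0 animals. The centred difference was 1.24 ± 0.17 (SE) on day 1.5 and 1.14 ± 0.17 on day 3.5, with limma adjusted p = 0.000287 and 0.000723. Summed reads rose from 256 to 661 CPM on day 0 to 1268 to 1485 CPM on day 1.5 and 1448 to 1616 CPM on day 3.5, and reads were found in 327 of 554, 513 of 573 and 419 of 477 gCap.

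Col4a1 ran in parallel, at 1.39, 1.83, 1.86 and 1.90 on day 0, 2.61, 3.02 and 3.02 on day 1.5 and 2.63, 2.87 and 2.77 on day 3.5. Both later days lay above day 0 without overlap and overlapped with each other, and the differences from day 0 were 1.08 ± 0.16 (limma adjusted p = 0.000558) and 0.94 ± 0.16 (0.00206). Sparc (chr11:55394500-55423183, minus strand), a collagen-binding matrix protein, stood at 1.96, 2.57, 2.71 and 2.76 on day 0, 3.43, 3.55 and 3.88 on day 1.5 and 3.40, 3.55 and 3.82 on day 3.5 (1.06 ± 0.16, limma adjusted p = 0.000558, and 1.03 ± 0.16, 0.00083). Col18a1, the source of endostatin, was low on day 0 (0.00999 to 0.0767) and reached 0.272, 0.639 and 0.295 on day 1.5 (0.30 ± 0.06, limma adjusted p = 0.00855). On day 3.5 it was at 0.138, 0.283 and 0.252, and that difference did not pass (0.11, limma adjusted p = 0.353). In aCap of the same animals the differences at day 1.5 were 0.86 for Col4a2, 1.05 for Col4a1 and 1.40 for Sparc, and none of these responses was called different from that of gCap. The calls of Col4a1, Col4a2 and Sparc at day 1.5 held without any single animal and with sort day as a covariate, and on reads per 10000 none of the 3 passed at day 1.5 (adjusted p = 0.219, 0.0518 and 0.107). At day 3.5 Col4a1 lost its call with sort day as a covariate (adjusted p = 0.0793).

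**Figure D3:**
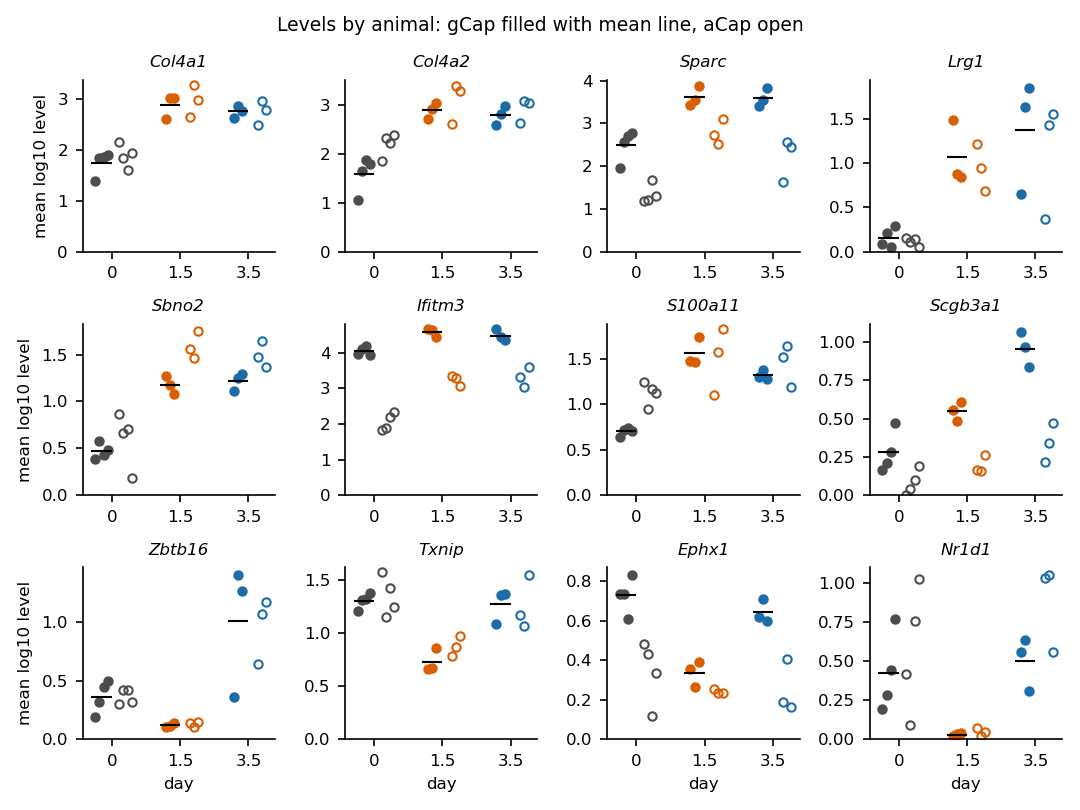
Mean log10 level of 12 genes by animal on days 0, 1.5 and 3.5, in gCap (filled, with a line at the mean) and aCap (open). Col4a1, Col4a2, Sparc, Lrg1 and Sbno2 lie above day 0 in every injected animal in gCap, Nr1d1 and Zbtb16 are lowest on day 1.5, and Scgb3a1 is highest on day 3.5.

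Genes of the IL-6 and STAT3 response rose with them. IL-6 family cytokines signal through the shared receptor chain gp130, encoded by Il6st, to the transcription factor STAT3, and in endothelium this response includes Lrg1, a secreted glycoprotein that modifies TGF-beta signalling. Of 10 tested genes of the list, 3 rose by day 1.5 (Bcl3, Il6st and Lrg1) and 3 by day 3.5 (Bcl3, Cebpd and Lrg1), none fell, and the medians were 0.15 and 0.21. Without single animals 2 to 4 genes were called on day 1.5 and 1 to 3 on day 3.5. Lrg1 (chr17:56119678-56122001, minus strand) stood at 0.09, 0.21, 0.05 and 0.29 on day 0, 1.49, 0.87 and 0.85 on day 1.5 and 0.65, 1.64 and 1.85 on day 3.5. Every injected animal exceeded every day 0 animal, by 0.85 ± 0.17 on day 1.5 (limma adjusted p = 0.00542) and 1.16 ± 0.17 on day 3.5 (0.000417). Reads of Lrg1 were found in 36 of 554 gCap before injection and in 257 of 573 and 243 of 477 after it, which was 2.13 to 12.2%, 32.3 to 61.9% and 25.3 to 69.4% by animal. With each cell thinned to 100000 reads the shares were 1.92 to 9.61%, 23.9 to 41.4% and 19.6 to 54.4%, and 83, 55 and 86 shallower cells were left out. The 5 richest cells held 66.3%, 30.8% and 31.6% of the reads of Lrg1 on the 3 days.

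Bcl3, a nuclear IkB protein, moved from 0.10 to 0.20 on day 0 to 0.578, 0.411 and 0.509 on day 1.5 (0.31 ± 0.06, limma adjusted p = 0.00507). Cebpd, a transcription factor of the acute phase response, reached the threshold only on day 3.5 (0.70 ± 0.15, limma adjusted p = 0.0158, and 0.53, 0.0575 on day 1.5), a call lost without any of 4 animals, and the call of Bcl3 on day 3.5 was lost without any of 6. Sbno2 (chr10:80056992-80105571, minus strand), a transcriptional co-regulator, was not on the list and was named for its small adjusted p. It stood at 0.385, 0.582, 0.432 and 0.486 on day 0, 1.28, 1.17 and 1.08 on day 1.5 and 1.11, 1.25 and 1.29 on day 3.5. Both later days again lay above all day 0 animals (0.65 ± 0.10, limma adjusted p = 0.000578, and 0.68 ± 0.10, 0.000417), and both calls held without any single animal and with sort day as a covariate. On reads per 10000 the day 1.5 calls of Lrg1, Sbno2, Bcl3 and Il6st were lost (limma adjusted p = 0.225, 0.0663, 0.444 and 0.212), and those of Lrg1 and Sbno2 at day 3.5 were not.

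Timp1, an inhibitor of matrix metalloproteinases and another gene of the list, was found in too few gCap for the test of levels. Its summed reads came to 2 over all day 0 animals, and to 23.7 to 50.6 CPM on day 1.5 and 11.7 to 38.7 CPM on day 3.5. The ratio of its share of reads to that of day 0 was 3632 on day 1.5 (95% exact interval from counting alone, 1005 to 29998), and edgeR called the rise on both days (adjusted p = 0.00745 and 0.0169). The day 1.5 call was lost without day 1.5 replicate 1 or 3 (adjusted p = 0.076 and 0.0783), the day 3.5 call in 8 of the 10 fits that left out 1 animal, and both with sort day as a covariate (0.36 and 0.401). The reads came from few cells, 30 of 573 on day 1.5 and 17 of 477 on day 3.5, of which the 5 richest held 76.6% and 83.1%. Akr1b8 (chr6:34354119-34368463, plus strand), an aldo-keto reductase gene, had 1 read in 1 gCap on day 0, 44.3, 12.8 and 43.8 CPM on day 1.5 and 8.54, 4.34 and 23.3 CPM on day 3.5. EdgeR called its rise on day 1.5 (adjusted p = 0.018) and not on day 3.5 (0.0627), and the call was lost in 7 of the 10 fits without 1 animal and with sort day as a covariate (0.528). Timp1 (chrX:20870166-20874735, plus strand) lies within Syn1, which is read from the other strand.

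Interferon-induced genes rose in part. Of 23 tested genes of this list 5 rose by day 1.5 (Ifitm3, Rtp4, Bst2, Xaf1 and Usp18) and 4 by day 3.5, none fell, 19 and 18 differences were positive and the medians were 0.09 and 0.06. Ifitm3 (chr7:141009586-141010770, minus strand) stood at 3.95, 4.10, 4.19 and 3.93 on day 0, 4.67, 4.64 and 4.44 on day 1.5 and 4.65, 4.43 and 4.37 on day 3.5, both above every day 0 animal. The difference was 0.48 ± 0.09 on day 1.5 (limma adjusted p = 0.00507) and 0.37 ± 0.09 on day 3.5 (0.0364), and 5 of the 7 fits that left out a day 0 or day 3.5 animal lost the second call. Bst2 (chr8:71534255-71537456, minus strand), or tetherin, which holds virus particles at the membrane, rose from 0.603 to 0.685 on day 0 to 0.972 to 1.33 on day 1.5 (0.42 ± 0.11, limma adjusted p = 0.0331) and 1.17 to 1.29 on day 3.5 (0.54 ± 0.11, 0.0124). Xaf1, an interferon-induced adaptor linked to cell death, went from 0.911 to 1.12 on day 0 to 1.58 to 1.67 and 1.69 to 1.84 (0.53 ± 0.13, limma adjusted p = 0.0252, and 0.63 ± 0.13, 0.0128). Without single animals the list had between 1 and 5 genes called on day 1.5 and between 0 and 4 on day 3.5, and with sort day as a covariate only Ifitm3 kept its call, on day 1.5 (adjusted p = 0.0301). Cxcl10, a chemokine gene of the list, was found in 1, 23 and 5 gCap on the 3 days, and 1 cell held 88.7% of its reads on day 1.5.

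Letters of the sites that interferon-activated and STAT factors are known to bind were searched in the 250 bases before each RefSeq start of a gene, on both strands. GAAA, any 2 bases and GAAA again, the core of the interferon-stimulated response element, was found before 936 of 27025 genes (3.46%) and before 12 of the 21 genes of the interferon list that have a promoter in the table (57.1%). Of the called genes, Bst2 held it, Ifitm3 and Xaf1 did not, and Rtp4 and Usp18 have no promoter in the table. TTCCNGGAA, a palindromic STAT motif, was found before 295 of 27025 genes (1.09%) and before 0 of 11 genes of the IL-6 and STAT3 list. Of 23 genes whose positions were looked up for this text and that have a promoter in the table, 3 held it, namely Bst2, Sbno2 and Scgb3a1, a gene of day 3.5 given below. These matches are described and not read as sites in use. The 3 windows are printed 5′ to 3′ on the strand of the gene, from GRCm38.p6, with matched letters in capitals. In Bst2 (chr8:71537557-71537638, minus strand, first capital 136 bases before the start) both motifs overlap. Sbno2 has 3 RefSeq starts in the table and is shown at the one that held the motif, which lies inside the interval given above and not at its end, from chr10:80101188-80101241 (minus strand, 24 bases before) and Scgb3a1 from chr11:49663371-49663439 (plus strand, 194 bases before).
Bst2: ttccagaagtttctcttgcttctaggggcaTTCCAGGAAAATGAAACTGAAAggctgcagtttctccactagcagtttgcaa
Sbno2: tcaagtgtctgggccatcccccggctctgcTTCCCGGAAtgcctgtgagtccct
Scgb3a1: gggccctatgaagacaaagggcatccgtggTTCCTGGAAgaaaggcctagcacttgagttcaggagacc

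Ribosomal protein genes shifted together on the centred scale. All 79 tested genes had a positive difference at day 1.5, under the reported scaling and the alternatives tried, the median was 0.50, and 24 passed the test. At day 3.5 the median was 0.50 with 21 called. Rpl32, for example, stood at 1.53, 1.75, 1.94 and 1.89 on day 0, 2.65, 2.49 and 2.91 on day 1.5 and 2.48, 2.80 and 2.48 on day 3.5 (0.85 ± 0.16, limma adjusted p = 0.0039, and 0.75 ± 0.16, 0.0158). On reads per 10000 none of the 79 was called on either day, and between 4 and 36 were called on day 1.5, and between 0 and 32 on day 3.5, when 1 animal was left out. The number of genes detected per cell moved in the same direction, and with it as a covariate the medians were 0.37 and 0.35, with 9 genes called on day 1.5 and 0 on day 3.5. Many ribosomal protein genes have near-identical processed copies in the genome, so reads may have been split among them.

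The study's biosynthesis panel rose too, with 9 of 10 tested genes on day 1.5 and 4 on day 3.5. This panel was chosen on these samples, so its direction is not independent evidence. Without single animals 5 to 9 of its genes were called on day 1.5 and 0 to 6 on day 3.5. S100a11, a calcium-binding protein of the panel, stood at 0.647, 0.722, 0.737 and 0.706 on day 0, 1.48, 1.47 and 1.74 on day 1.5 and 1.30, 1.38 and 1.28 on day 3.5 (0.80 ± 0.11, limma adjusted p = 0.000287, and 0.55 ± 0.11, 0.0128). Upp1, uridine phosphorylase, went from 0.543 to 0.76 on day 0 to 1.25 to 1.51 on day 1.5 (0.64 ± 0.11, limma adjusted p = 0.00172). Both rises at day 1.5 held with sort day as a covariate and on reads per 10000, whereas the call of S100a11 at day 3.5 did not (adjusted p = 0.114 and 0.17). Chaperones of the endoplasmic reticulum gave no call among 12 tested (limma), although all 12 differences at day 1.5 were positive, 9 had an unadjusted p under 0.05, and the median was 0.27. Hspa5 (BiP) stood at 1.33, 1.46, 1.60 and 1.77 on day 0, 2.44, 1.94 and 2.13 on day 1.5 and 1.11, 1.92 and 1.66 on day 3.5 (0.57 ± 0.17, limma adjusted p = 0.0759 for day 1.5), and the list median was 0.01 for day 3.5 against day 0.

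**Figure D4:**
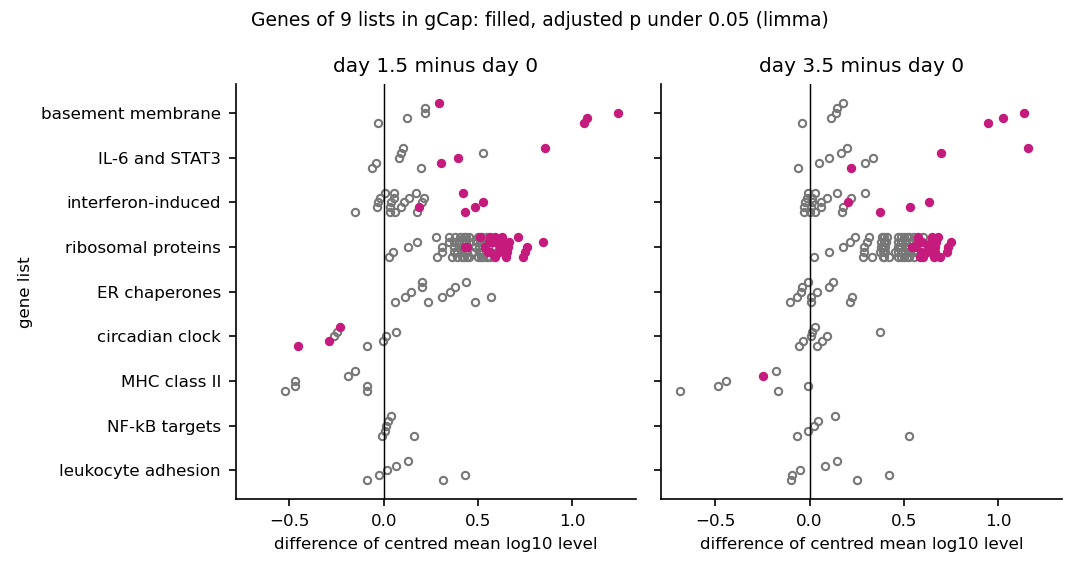
Differences of centred mean log10 level in gCap, day 1.5 minus day 0 (left) and day 3.5 minus day 0 (right), 1 point per tested gene of 9 lists, with genes of a limma adjusted p under 0.05 filled. Basement membrane genes reach 1.24, and ribosomal protein genes shift as a block with a median of 0.50. All 7 MHC class II genes lie below 0 on day 1.5 with none called, and without day 1.5 replicate 1 their median was -0.01.

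Genes of vessel wall identity were called in small number. Ly6a (Sca-1), a surface protein of the Ly6 family, stood at 3.29, 3.64, 3.74 and 3.56 on day 0, 4.49, 4.21 and 4.21 on day 1.5 and 4.00, 4.15 and 4.09 on day 3.5 (0.69 ± 0.11, limma adjusted p = 0.000608, and 0.46 ± 0.11, 0.025). Gja4 stood at 1.35, 1.30, 1.56 and 1.78 on day 0, 2.40, 2.56 and 2.34 on day 1.5 and 1.97, 2.04 and 2.07 on day 3.5. It was the only one of 7 tested arterial genes called on day 1.5 (0.88 ± 0.15, limma adjusted p = 0.00214). The median of the 7 was 0.24 on that day, with 5 differences positive. Summed as deposited, the 8 listed arterial genes stood at 6.27 to 7.78 on day 0, 8.15 to 9.66 on day 1.5 and 7.91 to 8.66 on day 3.5. Of 10 tested large-vessel markers Vwf and Plac8 rose on day 1.5. Vwf, the von Willebrand factor gene, which the study also has in its biosynthesis panel, went from 0.5 to 0.729 on day 0 to 1.14 to 1.56 on day 1.5 and 0.888 to 0.918 on day 3.5 (0.62 ± 0.11, limma adjusted p = 0.00226). The call of Plac8 (0.34 ± 0.07, limma adjusted p = 0.00815) was lost without day 1.5 replicate 1. Of 9 tested tip cell and angiogenic genes Unc5b, a netrin receptor, rose from 0.177 to 0.295 on day 0 to 0.61 to 0.802 on day 1.5 (0.38 ± 0.07, limma adjusted p = 0.00303), and Esm1, an endothelial proteoglycan, fell (-0.15 ± 0.04, 0.0299), a call lost without any of 5 animals. On reads per 10000 Ly6a and Unc5b kept their calls at day 1.5 and Gja4 and Vwf did not (limma adjusted p = 0.107 and 0.207).

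Fewer genes fell, and by day 1.5 they included 3 of 9 tested clock genes. Nr1d1 (chr11:98767932-98775333, minus strand) encodes the clock repressor REV-ERB alpha, and the gene overlaps Thra on the other strand. It stood at 0.192, 0.285, 0.445 and 0.775 on day 0, 0.0167, 0.0323 and 0.0369 on day 1.5 and 0.56, 0.639 and 0.312 on day 3.5. In summed reads this was 29.5 to 171 CPM, 0.163 to 0.185 CPM and 37.9 to 57.5 CPM. Reads were found in 102 of 554, 8 of 573 and 110 of 477 gCap. Day 1.5 lay below all other animals, and the fall passed in both tests (-0.45 ± 0.09, limma adjusted p = 0.00507, and a log2 fold change of -9.02 ± 0.84 in edgeR, adjusted p = 0.00705). The return by day 3.5 passed in edgeR (log2 fold change 7.95 ± 0.81, adjusted p = 0.0174) and not in limma (adjusted p = 0.136). The edgeR call of the fall was lost without day 1.5 replicate 1 or 3 (adjusted p = 0.076 and 0.0783), and that of the return in 7 of the 10 fits that left out 1 animal (0.0609 to 0.319). Nr1d2 (-0.23 ± 0.04, limma adjusted p = 0.0039) and Tef (-0.29 ± 0.06, 0.0131) fell beside it, and the call of Tef was lost without day 1.5 replicate 1 or 3. Of the 9 differences 2 were positive. The clock activator genes Arntl and Npas2 were found in too few gCap for the test of levels, and both lay above day 0 on day 1.5, Arntl at 0.0339, 0.0491 and 0.144 against 0 to 0.0247 (edgeR adjusted p = 0.841) and Npas2 at 0.0117, 0.00892 and 0.0193 against 0 in every day 0 animal. The time of day of each sort is not given in the sources used here. The limma call of Nr1d1 was lost with sort day as a covariate (adjusted p = 0.121). It was present against the day 0 animals of the same sort day alone (-0.28 ± 0.04, limma adjusted p = 7.8e-05). On reads per 10000 the day 1.5 limma calls of Nr1d1, Nr1d2 and Tef were all lost.

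Txnip (chr3:96557957-96561883, plus strand), the thioredoxin-interacting protein that limits glucose uptake, was likewise lowest on day 1.5. It stood at 1.21, 1.31, 1.33 and 1.38 on day 0, 0.664, 0.671 and 0.858 on day 1.5 and 1.09, 1.36 and 1.37 on day 3.5 (-0.64 ± 0.11, limma adjusted p = 0.00226, for day 1.5). Ephx1, an epoxide hydrolase of xenobiotic metabolism, stood at 0.736, 0.733, 0.608 and 0.833 on day 0, 0.355, 0.263 and 0.392 on day 1.5 and 0.616, 0.71 and 0.597 on day 3.5 (-0.45 ± 0.08, limma adjusted p = 0.00187). Day 1.5 was below every other animal for both genes, and both calls held without any single animal, with sort day as a covariate and on reads per 10000. All 3 tested red cell genes fell on day 1.5 as well, among them Hba-a1 (-0.27 ± 0.07, limma adjusted p = 0.0331). None of the 3 was called without centring, and Hba-a1 lost its call when any of 5 animals was left out.

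A further group was called on day 3.5 and had its highest mean there. Scgb3a1 (chr11:49663610-49665118, plus strand), a secretoglobin gene, stood at 0.168, 0.211, 0.282 and 0.474 on day 0, 0.555, 0.488 and 0.608 on day 1.5 and 1.07, 0.967 and 0.835 on day 3.5. All day 3.5 animals lay above all others, and the difference from day 0 was 0.61 ± 0.08 (limma adjusted p = 0.000262). This limma call held under each alternative scaling of levels, with sort day as a covariate and without any single animal. The difference at day 1.5 was 0.21 (limma adjusted p = 0.206). EdgeR on summed reads did not call Scgb3a1 on either day. Scgb3a1 is known as a product of airway epithelium, and an epithelial source of its reads was not tested. The 10 epithelial genes summed to 8.04 to 57.8 CPM on day 0 and 12.9 to 45.6 CPM on day 3.5. Scgb3a1 itself had 52.9 to 678 CPM and 798 to 1020 CPM. The 5 richest gCap held 75.5% of its reads on day 0 and 43.0% on day 3.5. Serpina3g, a serine protease inhibitor, followed with 0.283 to 0.395, 0.564 to 0.863 and 0.888 to 0.974 on the 3 days (0.50 ± 0.08, limma adjusted p = 0.00147, for day 3.5), and Rapgef4, the cyclic AMP sensor EPAC2, with 0.096 to 0.352, 0.422 to 0.539 and 0.639 to 0.766 (0.42 ± 0.07, limma adjusted p = 0.00152). Tmem252 was at 1.27 to 1.56 on day 0, 1.63, 1.76 and 2.55 on day 1.5, already above day 0, and 2.10, 2.92 and 2.96 on day 3.5, which overlaps day 1.5 (1.15 ± 0.19, limma adjusted p = 0.00206), and this call was lost without day 3.5 replicate 2 and on reads per 10000 (adjusted p = 0.0978).

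Zbtb16 (chr9:48654297-48836222, minus strand), the zinc finger factor PLZF and a known target of glucocorticoid receptors, was the only gene that limma called between the later days. It stood at 0.191, 0.32, 0.445 and 0.493 on day 0, 0.107, 0.108 and 0.141 on day 1.5 and 0.359, 1.40 and 1.26 on day 3.5. The rise from day 1.5 was 0.88 ± 0.14 (limma adjusted p = 0.00368), and it was lost without day 1.5 replicate 2 or day 3.5 replicate 2. The later days were sorted on different days, and with sort day as a covariate neither this call nor that of Nr1d1 between the later days was made by limma or edgeR. All day 3.5 animals were above all day 1.5 animals, and day 3.5 replicate 1 lay within the range of day 0.

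The course of the rule genes is given with no test, since cells of every day were chosen by them. Gpihbp1 stood at 3.90, 3.97, 4.03 and 4.03 on day 0, 3.94, 3.72 and 3.92 on day 1.5 and 4.19, 4.13 and 4.10 on day 3.5. Plvap stood at 3.13, 3.04, 3.20 and 3.19, then at 3.34, 3.19 and 3.23, then at 2.81, 3.01 and 3.18. Cd93 was at 2.31 to 2.63 on day 0, 2.89 to 3.15 on day 1.5 and 2.61 to 3.31 on day 3.5, while Tek and Ptprb overlapped between all days. The lipase gene Lpl was at 1.08 to 1.16 on day 0, 0.817 to 1.30 on day 1.5 and 0.549, 1.34 and 2.06 on day 3.5, which is a wide spread among the last animals, and it did not pass (limma adjusted p = 0.707 and 0.795).

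MHC class II genes, which marked gCap against aCap, were lowest in 1 animal, in which Cd74 was nearly silent. These proteins present peptides to CD4+ T cells, Cd74 guides their assembly and Ciita switches the genes on. Cd74 stood at 1.85, 1.74, 1.59 and 1.75 on day 0, 0.051, 2.02 and 1.72 on day 1.5 and 1.58, 0.832 and 0.897 on day 3.5. In day 1.5 replicate 1 reads of Cd74 were found in 2.97% of gCap, against 35.8 to 68.3% in the other animals, and its summed reads were 0.884 CPM against 96.4 to 1139 CPM. All 7 genes of the list were lowest in that animal, H2-Ab1 at 0.467 against 1.44 to 2.16 elsewhere and Ciita at 0.0456 against 0.102 to 0.219, although it had 202 gCap and the most reads. Its aCap were also lowest for Cd74 (0.0154).

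No class II gene passed for day 1.5 against day 0 (limma, 3 of 7 with an unadjusted p under 0.05, and edgeR 0 of 7), with a list median of -0.19 and 0 positive differences. Without day 1.5 replicate 1 the median was -0.01 with 3 of 7 positive and again 0 called, and Cd74 differed by 0.07 ± 0.19 (limma adjusted p = 0.907) in place of -0.52 ± 0.26 (0.349). H2-Eb1, another class II chain, was called lower on day 1.5 without day 1.5 replicate 3 (-0.65 ± 0.14, limma adjusted p = 0.0176) and without day 3.5 replicate 1 (-0.47 ± 0.13, 0.0342). For day 3.5 against day 0 the list median was -0.25, and H2-DMb1, which encodes a chain of the peptide exchange factor, fell (-0.25 ± 0.07, limma adjusted p = 0.0486), a call lost in 6 of the 7 fits that left out a day 0 or day 3.5 animal. Cd74 was not called there with all animals (limma adjusted p = 0.165) and was called without day 1.5 replicate 1 (-0.69 ± 0.17, 0.0281) or without day 3.5 replicate 1 (-0.95 ± 0.26, 0.0457), and the same was true of H2-Eb1 (adjusted p = 0.048 and 0.0167). On day 3.5, replicates 2 and 3 lay below all day 0 animals for Cd74 and H2-Ab1, and replicate 1 below all of them too, by less. Ciita hardly differed between day 3.5 and day 0 (-0.01 ± 0.04 without day 1.5 replicate 1, limma adjusted p = 0.932).

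**Figure D5:**
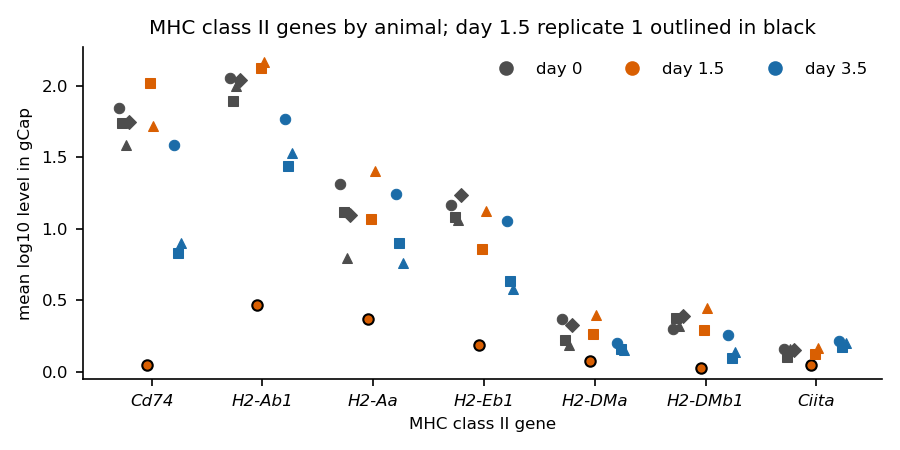
Mean log10 level of 7 MHC class II genes in the gCap of each animal, with days by colour, replicates 1 to 4 by circle, square, triangle and diamond, and day 1.5 replicate 1 outlined. That animal lies lowest for all 7 genes, at 0.051 for Cd74 against 0.832 to 2.02 in the others.

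Other lists showed few calls or none on either later day against day 0. Leukocyte adhesion molecules (7 tested), NF-kB targets (6), immediate early genes (11), MHC class I genes (10), haemostatic genes (7), shear-responsive genes (10), Notch and BMP pathway genes (16), fatty acid uptake genes (8), venous genes (4) and general endothelial genes (10) had 0 calls by limma or edgeR. At an unadjusted p under 0.05 on day 1.5 they had 1, 0, 0, 0, 3, 5, 2, 0, 0 and 0 genes. Among the shear-responsive genes Klf2, a transcription factor induced by laminar flow, differed by 0.46 ± 0.17 on day 1.5 and 0.55 ± 0.17 on day 3.5 (limma adjusted p = 0.194 and 0.105). Of 11 glycolysis genes Ldha passed on day 3.5 (0.47 ± 0.10, limma adjusted p = 0.0159), a call lost without any of 3 animals. Of 29 tested cycling markers Jpt1 passed on day 1.5 and Hmgb2 on day 3.5, calls lost without either of 2 and any of 4 animals, and reads of Mki67, a marker of dividing cells, were found in 3 of 554, 10 of 573 and 20 of 477 gCap. Lrg1 was the gene called of 2 tested on the study's angiokine panel.

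Whether gCap responded differently from aCap was tested on the difference within each animal, and neither limma nor edgeR called a gene. Limma gave 0 of 10963 genes for each pair of days. In the order day 1.5 against day 0, day 3.5 against day 1.5 and day 3.5 against day 0, 740 (6.75%), 532 (4.85%) and 942 (8.59%) had an unadjusted p under 0.05. EdgeR gave 0 of 16757 for each pair, with 633 (3.78%), 499 (2.98%) and 759 (4.53%) at an unadjusted p under 0.05. DESeq2 on the 14496 genes with reads in at least 15 of the 20 sums called 234 (1.61%), 140 (0.966%) and 425 (2.93%). The largest of these gaps among the genes named above was that of Ifitm3 on day 3.5, which differed from day 0 by 1.20 in aCap and 0.37 in gCap (difference of responses -0.82 ± 0.24, limma adjusted p = 0.374). On day 1.5 Ly6a differed by 0.14 in aCap against 0.69 in gCap (0.56 ± 0.13, limma adjusted p = 0.349), Upp1 by 0.15 against 0.64 (0.49 ± 0.09, 0.349), S100a11 by 0.34 against 0.80 (0.46 ± 0.14, 0.431) and Ephx1 by -0.14 against -0.45 (-0.31 ± 0.07, 0.349). On day 3.5 Scgb3a1 differed by 0.22 in aCap against 0.61 in gCap (0.40 ± 0.10, limma adjusted p = 0.313). With 35 to 88 aCap per animal, differences of this size were not called at this depth, which does not show that the responses are alike.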

How the data were processed

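Single endothelial cells of 10 mouse lungs were analysed, with the animal as the replicate. The authors deposited estimated counts per gene and cell, made with salmon 0.7.2 on GRCm38 per the labels and tximport per the methods. The authors also deposited filtered values on a log10 scale, and recomputation gave at least 99.9% of the positive values within 0.001 as log10 of the estimated count over the mean of the detected housekeeping genes, times 10000, plus 1, while a median of 1 or 2 genes per cell had reads and a deposited value of 0. The kept cells passed the authors' minimum of 1000 detected genes and a filter on immune and mural genes. Levels (log10) were averaged over the gCap of each animal, centred on the animal's median over genes detected in at least 5% of gCap, and compared between days in limma-trend (limma 3.58.1). Estimated counts were summed per animal, rounded, filtered with filterByExpr, scaled by TMM and tested with edgeR 4.0.16 (quasi-likelihood), with DESeq2 1.42.0 as an alternative. All p-values were adjusted by Benjamini-Hochberg over all genes tested, and 0.05 was the threshold. Differences between gCap and aCap responses were tested within animals in limma and as class by day in edgeR, and in DESeq2 on genes with reads in at least 15 of 20 sums whose fit converged, a limit chosen after seeing the data because calls among sparser genes varied with the numerical library. Shares of cells were compared by exact permutation tests over animals in scipy 1.17.1. The fits were tested on simulated data. Doublets were not called, as wells were filled with single sorted cells. Intervals of counts cover counting error only.

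The members, gene lists and tests were chosen with earlier results of these data known. Named genes were the rule genes and the study's further markers, the 15 genes most different between gCap and aCap in each direction, all genes called by edgeR, the 10 of smallest adjusted p in each direction by limma without predicted genes, and up to 4 genes per list. Cxcl10, Mki67, Klf2, Lpl and Hspa5 are members of fixed lists described whether called or not. Gene positions are from GENCODE M21 and promoter windows from RefSeq (GRCm38.p6). Alternatives were the scaling of levels, the filter, the limit of D, the study's marker lists, each animal left out, a replicate block, and, added after the data had been seen, sort day, a minimum of 1500 detected genes per cell and detected genes as a covariate.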

Additional observations from a re-analysis of the deposited data

Results flagged for a closer look

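In each of 47 named genes the 4 day 0 animals were checked for one that stood apart, by the gap to its neighbour as a share of the whole range against Dixon's critical value at 95%. Chance alone marks about 1 in 20 such groups, and 2 of the 47 genes were marked. Col4a1 had a level of 1.39 in day 0 replicate 1, below 1.83 to 1.90 in the other day 0 animals, and this animal had the fewest genes detected per cell. Akr1b8 had a level of 0.00339 in day 0 replicate 4, from 1 read, and was listed at 0 in the other 3.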

How the results depend on the processing

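No called difference of a named gene changed its sign under the alternatives, which reuse the same animals. Uncalled ones did, such as those of Cd74, H2-Aa and H2-Ab1 without day 1.5 replicate 1 (day 1.5 against day 0). The differences in the share of gCap kept their sign, and without single animals, where no test has enough animals to pass, they were -5.21 to -0.36 points (day 1.5 against day 0), 5.76 to 11.1 (day 3.5 against day 1.5) and 4.03 to 8.07 (day 3.5 against day 0). Counts of called genes moved. In the order day 1.5 against day 0, day 3.5 against day 1.5 and day 3.5 against day 0, limma on levels called 216, 1 and 157 as reported, 476, 1 and 467 without centring, 15, 1 and 24 on reads per 10000, 248, 2 and 217 with no filter, 81, 0 and 15 with sort day as a covariate, 255, 2 and 187 in cells of at least 1500 genes, and 176, 2 and 5 with detected genes as a covariate. Against day 0 animals of the same sort day it called 86 (day 1.5) and 14 (day 3.5). Leaving out 1 animal gave 66 to 274, 0 to 47 and 14 to 255. The first count was 70, 109 and 66 without day 0 replicates 1, 2 and 3 and 114 and 102 without day 1.5 replicates 1 and 3. The third was 23, 35 and 52 without day 0 replicates 1, 2 and 3 and 255, 14 and 91 without day 3.5 replicates 1, 2 and 3. The second was 47 without day 3.5 replicate 1, 6 without day 1.5 replicate 3, 5 without day 3.5 replicate 3, 3 without day 0 replicate 4 and 0 without day 1.5 or day 3.5 replicate 2. EdgeR called 3, 1 and 1, and 5, 1 and 1 with D below 0, 1, 0 and 0 with sort day, and 0 to 4, 0 to 1 and 0 to 2 without single animals, whereas DESeq2 called 339, 115 and 439. Either of day 1.5 replicates 1 and 3, left out, brought the first edgeR count to 0. For the difference of gCap and aCap responses DESeq2 called 234, 140 and 425, and leaving out 1 animal gave 0, 0 and 0 to 2 in limma and 0 to 1, 0 and 0 to 2 in edgeR. The causes of these shifts were not tested.

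The replicate numbers of different days belong to different animals. Same-numbered animals correlated at -0.15 to 0.24 in their deviations, so the numbers do not pair them. With a replicate block limma called 190, 2 and 188 genes and edgeR 0, 0 and 0. Depth limits gCap genes that few cells hold, such as Timp1, where a handful of cells set the sum.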
